A study of Homo sapiens with 6 samples.

Results

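NAT10 is the acetyltransferase that writes N4-acetylcytidine (ac4C) on RNA, and the transcripts it binds were collected in SW480 and DLD-1 cells by RNA immunoprecipitation with an antibody against NAT10 followed by sequencing (RIP-seq). SW480 and DLD-1 are epithelial lines from colorectal cancers (CRC), grown untreated and labelled as wild type, and each kind of library was made once per line. The genes described here were chosen by their level in RIP relative to the Input carrying the other cell line's label. The RIP library labelled SW480 was set against the Input library labelled DLD-1, and the RIP library labelled DLD-1 against the Input library labelled SW480. The ratio was log2((RIP FPKM + 1)/(Input FPKM + 1)), where FPKM is the read count scaled to exon length and to the reads of the library, and the added 1 FPKM is a pseudocount. It understates the difference of genes at a low level. Of the 58302 genes in the deposited table, 29953 were above 0 in at least 1 of these 4 libraries and 12324 had at least 1 FPKM in both Inputs. Among these 12324 genes, 689 were at least 2-fold higher in RIP in both crossed pairs and 1036 were at least 2-fold lower in both. The background shares were 5.59% for the higher genes and 8.41% for the lower genes, and because these ratios chose the 1725 members, they are a description of the libraries and not a test.

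The libraries were crossed because they did not pair by label. Pearson's r was taken on log2(FPKM + 1) over 19847 protein-coding genes. For the RIP labelled SW480 it was 0.958 against the DLD-1 Input and 0.900 against the SW480 Input. For the RIP labelled DLD-1 it was 0.961 against the SW480 Input and 0.888 against the Input of its own label. The Input columns of the RIP table and of the acRIP-seq table matched by label, at r = 0.970 for SW480 and r = 0.966 for DLD-1. The labels list 1 Input sample per line, to which the columns of both tables belong, and whether the columns come from separate libraries is not stated. The match, and every check below over the acRIP-table Inputs or all 4 Input columns, may therefore rest on the same Input libraries processed again. These correlations run across genes, which are not independent replicates. Each group held 1 library, so there was no replicate, no p-value and no estimate of the spread between cultures, and the errors given below cover counting only. The reads behind the scaling numbered 29628966 for RIP and 14617145 for Input under the SW480 label, and 25189477 and 13498777 under the DLD-1 label. Epithelial identity held in all 4 libraries, with 7 or 8 of the 8 epithelial markers at 1 FPKM or more. Of the 11 markers of fibroblasts, leukocytes and endothelium, 1 passed 1 FPKM in 1 library, a leukocyte gene at 1.16 FPKM in the Input labelled SW480.

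In RIP-seq, RNA that is bound by the precipitated protein is expected to be over-represented against the RNA of the whole lysate, the Input. NAT10 acetylates ribosomal and transfer RNA as well as messenger RNA, and its work on 18S ribosomal RNA is guided by box C/D small nucleolar RNAs. Small nucleolar RNAs (snoRNAs), small nuclear RNAs (snRNAs), Y RNAs and vault RNAs are short RNAs that carry no poly(A) tail, whereas ribosomal protein messages are among the shortest and most translated messages of the cell.

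Sequences are shown for 2 kinds of member. The first are microRNA genes, because 26 of the 33 tested genes of that class were at least 2-fold lower in both pairs. Their mature strands in RefSeq (GRCh38.p14) are given 5′ to 3′ with the seed, bases 2 to 8, in capitals. They identify the gene only, since the reads of a microRNA gene cover its hairpin and cannot be read as the mature strand.
hsa-miR-4449: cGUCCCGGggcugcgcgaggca
hsa-miR-3648: aGCCGCGGggaucgccgaggg
hsa-miR-185-5p: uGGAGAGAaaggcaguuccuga
hsa-miR-185-3p: aGGGGCUGgcuuuccucugguc
hsa-miR-1244: aAGUAGUUgguuuguaugagaugguu
The first lies at chr4:52712720-52712741 (plus strand), the second, for the copy MIR3648-2, at chr21:8987026-8987046 (plus strand), and both strands of miR-185 lie between positions 20033153 and 20033209 of chromosome 22 (plus strand). The 4 strands from genes lower in RIP have 4 different seeds. miR-1244, at chr5:118974640-118974665 (plus strand), belongs to MIR1244-2, the single microRNA gene that was higher in both pairs.

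The second kind are transcription starts of ribosomal protein genes and TPT1, messages that textbooks class as TOP messages, which begin with a C followed by a run of pyrimidines. The stretches below run from 10 bases before to 15 bases from the annotated start on, on the gene's strand (RefSeq, GRCh38.p14), with the transcribed bases in capitals.
RPS23: cggtgcttctCTCTTTCGCTCAGGC
TPT1: ctgagtcggcCTTTTCCGCCCGCTC
RPL41: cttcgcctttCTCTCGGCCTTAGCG
RPS3A: cccacttccgCCCTTTTGGCTCTCT
RPS24: aatcgtggttCTCTTTTCCTCCTTG
RPL9: taatgacgacAGACGTTCTTTCTTT
RPS23 starts in this window at chr5:82278340-82278364 (minus strand), TPT1 at chr13:45341169-45341193 (minus strand), RPL41 at chr12:56116623-56116647 (plus strand), RPS3A at chr4:151099618-151099642 (plus strand), RPS24 at chr10:78033853-78033877 (plus strand) and RPL9 at chr4:39458908-39458932 (minus strand). All but RPL9 begin with a C followed by 4 bases that are each C or T. Such a start was found in 4.07% of all 35116 promoters of the reference table, in 44 of the 66 ribosomal protein genes with an entry, and in 10 of the 15 that were higher in both pairs. The share was thus 66.7% both for the higher ribosomal protein genes and for the whole list. Across protein-coding genes with an entry it was 8.91% for the higher, 7.59% for the lower and 5.84% for all.

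Both crossed ratios ran together over the table. The crossing was chosen because the libraries matched better that way, so the closer run of the ratios is part of that choice and not a separate result. Their correlation across the 12324 genes was r = 0.841, against r = 0.234 for the ratios over the Input of the same label, which come from the same 4 libraries. Among the 10350 protein-coding genes the values were r = 0.811 and r = -0.104. Only 7 genes (0.0568%) were at least 2-fold higher in one crossed pair and at least 2-fold lower in the other, and 10592 passed neither rule. With the Input of the same label, 717 genes had opposite directions.

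**Figure D1:**
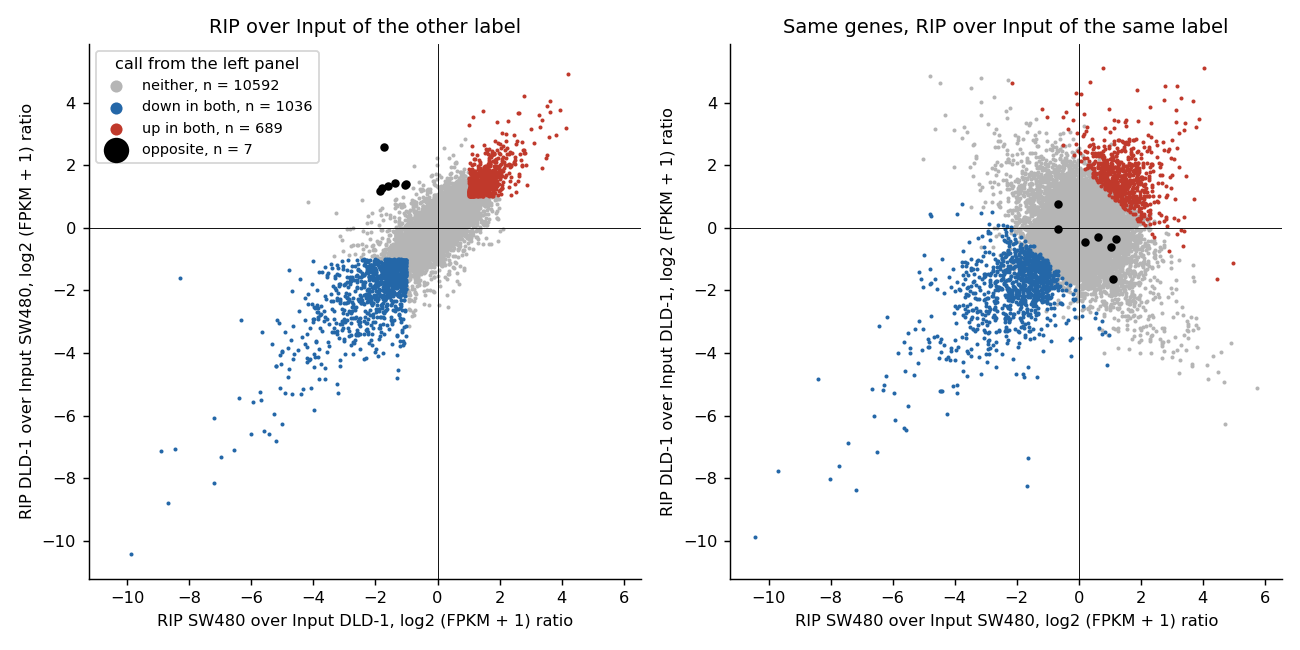
Each point is 1 of the 12324 genes, with the log2 ratio of RIP to Input (FPKM + 1) in one pair on the x axis and in the other pair on the y axis, over the Input of the other label (left) and of the same label (right). Colours give the call from the left panel; the 689 higher and 1036 lower genes fill opposite corners there, and on the right the same genes spread out while 717 genes lie in the corners of opposite direction.

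The members on the higher side had a median log2 ratio of 1.46 in the first pair (RIP labelled SW480 over Input labelled DLD-1) and 1.47 in the second. Their lower side counterparts had medians of -1.72 and -1.73. The higher genes rested on many reads, with medians of 1727 and 1563 reads in the RIP libraries and of 284 and 248 reads in the Inputs labelled SW480 and DLD-1. The median counting error of their log2 ratios was 0.09 and 0.08. The lower genes were thinner, with median Input reads of 42 and 37, and 862 of the 1036 had 10 reads or more in both Inputs, as did 683 of the 689 higher genes. In both RIP libraries 380 lower genes (36.7%) had no read at all. When each 0 was replaced by the level of 3 reads, the limit that a count of 0 allows, 868 of the 1036 were still at least 2-fold lower in both pairs. Near the threshold, WDR77, URM1 and RABAC1 lay just inside the higher side with limiting log2 ratios of 1.00088, 1.00003 and 1.00002, and MKKS, RPP38 and CDK7 lay just outside with 0.999982, 0.999732 and 0.999607. On the lower side AL592295.1, ZBTB47 and SLC38A7 were the last inside, and NPIPB12, ACAP1 and AL662890.2 the first outside.

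RNA class separated the directions. Protein-coding genes made up 84.0% of the tested genes and 92.5% of the higher members but 19.7% of the lower ones. Of the 10350 tested protein-coding genes, 637 (6.15%) were higher and 204 (1.97%) were lower. Of the 1974 genes of all other classes, 52 (2.63%) were higher and 832 (42.1%) were lower, with median log2 ratios of -1.07 and -1.01. The RIP libraries held fewer reads of several short classes. snoRNAs took 0.0224% and 0.0679% of the reads in genes in RIP (SW480 label first, as in all pairs of values below) and 0.252% and 0.202% in the Inputs. snRNAs took 0.0125% and 0.0412% in RIP and 0.123% and 0.116% in Input. Mitochondrial ribosomal RNA did not share this order, with 0.133% and 0.194% in RIP and 0.136% and 0.106% in Input.

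**Figure D2:**
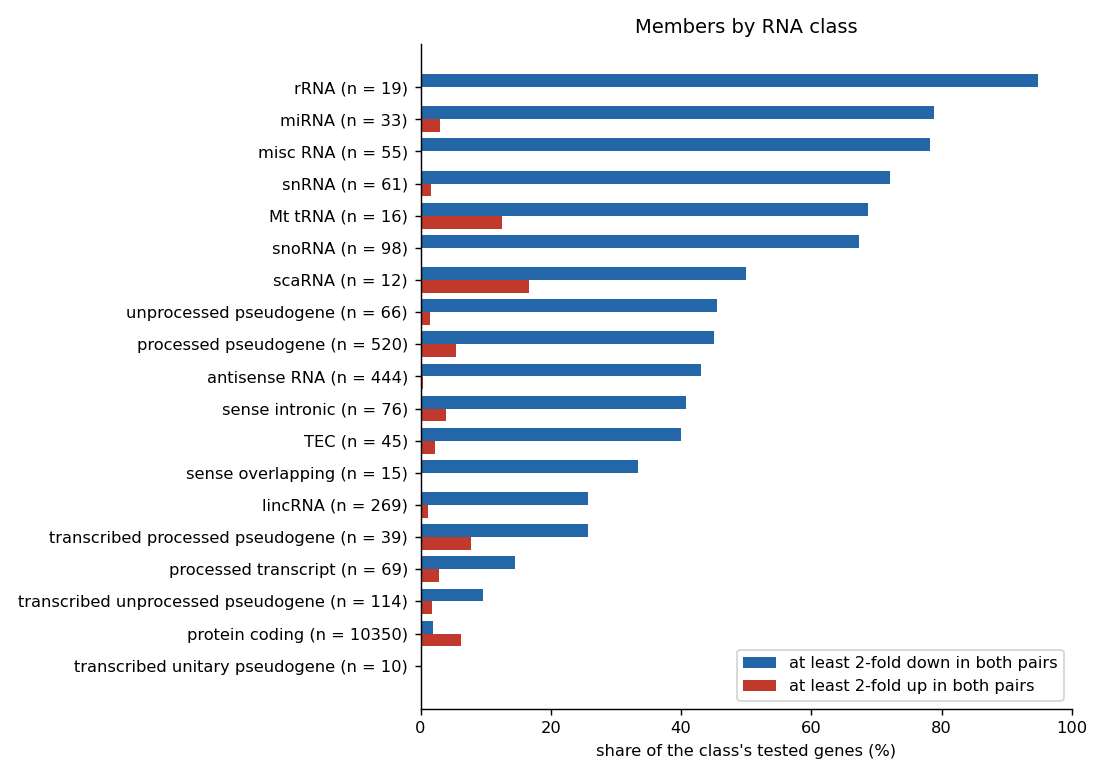
Bars give, for each RNA class with at least 10 tested genes, the share of its genes (in %) at least 2-fold lower (blue) or higher (red) in both crossed pairs. The rRNA class reaches 94.7% lower genes and protein-coding genes 1.97%, while no class passes 16.7% higher genes.

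Among the short RNAs, 66 of 98 snoRNA genes were lower in both pairs and 0 were higher, with medians of -2.38 and -1.98 (-2.28 and -1.78 with the zeros at the level of 3 reads). By family, 26 of 41 box C/D snoRNAs, which guide 2′-O-methylation of RNA, were lower. A joint list of scaRNAs and of box H/ACA snoRNAs, which guide pseudouridylation, had 47 of 68 lower. The scaRNA class alone had 6 lower and 2 higher of 12. SNORA3B, a box H/ACA snoRNA, had 3.61 and 7.58 FPKM in RIP under the SW480 and the DLD-1 label, and 3809 and 1881 FPKM in the Inputs in that order. Both RIP values lay far below both Inputs, a difference of 409-fold in the first pair and 444-fold in the second on the scale with the pseudocount. SNORD8, a box C/D snoRNA, had 1.53 and 0.722 FPKM in RIP against 153.0 and 121 FPKM in Input, and SNORA26 had 3.04 and 5.86 against 322 and 248 FPKM. The 2 exceptions in these families were the Cajal body RNAs SCARNA13 and SCARNA7, named because they were the only higher members. SCARNA13 had log2 ratios of 2.12 and 2.61 and turned to at least 2-fold lower over the acRIP-table Inputs.

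Of the 62 spliceosomal snRNA genes, the RNA core of the splicing machinery and its many copies, 44 were lower and 1, a copy named U1, was higher. Their medians were -2.25 and -1.64 (-2.01 and -1.17 with zeros at the level of 3 reads). Over the acRIP-table Inputs 21 of the 44 were lower again. RNU6-5P, a copy of U6, had 0.946 and 1.11 FPKM in the RIP libraries and 339 and 245 FPKM in the Inputs labelled SW480 and DLD-1. Its log2 ratios over the acRIP-table Inputs were -0.25 and -1.50, so that it was not in the lower group with those columns. RNU6-4P had no read in either RIP library and 44.1 and 50.5 FPKM in the Inputs, and was at least 53.4-fold and 39.6-fold lower against the level of 3 reads. Such copies are near identical, and reads may be split between them in a way that the table does not show.

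Y RNA genes with RNY symbols, vault RNAs, 7SL, 7SK and the RNA subunits of RNase P and MRP formed a further list, with 29 of 37 genes lower and 0 higher. The copies named only Y_RNA were not part of that list. RNY4, a Y RNA, was listed at 0 in the RIP library labelled SW480 and at 4.14 FPKM in the other, against 342 and 147 FPKM in the Inputs. VTRNA1-1, a vault RNA, had 1.36 and 3.61 FPKM in RIP and 174 and 123 FPKM in Input. RNY3 was at 0 in both RIP libraries with 75.8 and 31.2 FPKM in the Inputs, which is at least 31.5-fold and 64.9-fold lower. These genes were named for the lowest ratios of the list, so that their RIP and Input values did not overlap is part of that choice.

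MicroRNA genes were lower in 26 of 33 cases of the class, and in 28 of 45 when 12 microRNA host transcripts were included. The class had medians of -3.26 and -2.56 (-2.70 and -1.62 with the zeros at the level of 3 reads). No read in either RIP library was found for 8 of the 26. Over the acRIP-table Inputs 11 of the 26 were lower again, and over all 4 Input columns 10. MIR3648-1 had 0.375 and 1.54 FPKM in RIP against 355 and 663 FPKM in the Inputs labelled SW480 and DLD-1. It lies at chr21:8208473-8208652, inside the RefSeq span of the ribosomal RNA precursor gene RNA45SN2. MIR3687-1 had 0.553 and 0.651 FPKM in RIP and 222 and 546 FPKM in Input. MIR4449 had 3.07 and 1.203 FPKM against 75.7 and 136 FPKM, a difference of 33.6-fold and 34.8-fold. Ribosomal RNA genes themselves were listed in 19 cases, 18 of them lower, and 15 of the 18 had no read in either RIP library. Over the acRIP-table Inputs 8 of the 18 were lower again. RNA5-8SN4, a copy of 5.8S ribosomal RNA, had 4.19 and 1.30 FPKM in RIP and 78.2 and 87.2 FPKM in Input. The whole rRNA class took at most 0.0110% of the reads in any library.

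Many of these short RNAs are processed out of longer genes, so each was set beside the gene whose RefSeq span holds it. Of 143 snoRNA, scaRNA and microRNA genes tested, 140 had a position, 131 lay inside a longer gene and 125 had a tested host, 109 different ones in all. The median log2 ratios were -2.51 and -2.12 for the short RNAs and 0.31 and 0.29 for their hosts, and 109 of the 125 lay below their host in both pairs. Of the 87 short RNAs that were lower, 75 had a host that passed neither rule, 3 had a lower host and 9 had a higher host. SNORD12C, a box C/D snoRNA with log2 ratios of -2.97 and -2.18, sits in ZFAS1, a snoRNA host transcript with 40.4 and 50.9 FPKM in RIP and 11.8 and 8.13 FPKM in the Inputs labelled SW480 and DLD-1. ZFAS1 had ratios of 2.18 and 2.02. SNORA74B (-3.33 and -3.19) lies in ATP6V0E1, a subunit of the proton pump of lysosomes, at 1.81 and 1.84. SNORA58 (-3.25 and -4.98) lies in MRPL3, a mitochondrial ribosomal protein gene, at 1.40 and 1.69. SNORA73B (-2.28 and -1.42) lies in SNHG3, at 1.43 and 1.64, and MIR185 (-3.86 and -2.56) in TANGO2, at 1.81 and 1.54. SNORA26 and MIR4449 both lie in DANCR, a long non-coding RNA that was close to its Input, at -0.09 and 0.35. The list of snoRNA host long non-coding RNAs counted 5 higher (23.8%) and 0 lower genes of 21, with medians of 0.69 and 0.55. The higher share was 2.63% over all genes outside the protein-coding class. Of the 5, 3 were higher again over the acRIP-table Inputs, 2 over both Inputs of the RIP table and 1 over all 4 Input columns. SNHG3 was not higher over both Inputs of the RIP table, with 0.74 and 2.34 over the Input of the same label.

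**Figure D3:**
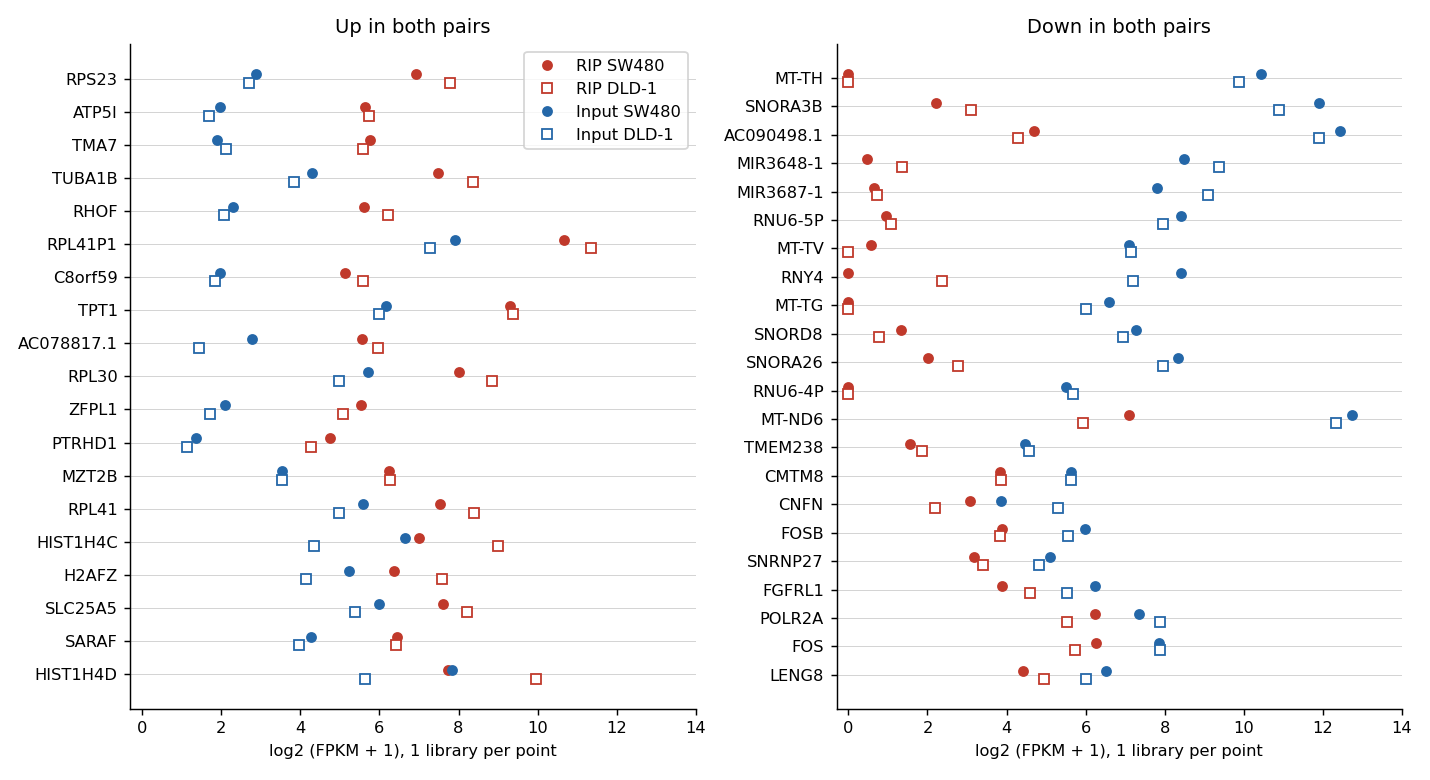
Each row is a gene named for its extreme ratio, or for its extreme ratio among protein-coding genes with at least 10 FPKM in both Inputs, and each point is 1 library on the scale log2(FPKM + 1). In the left panel RIP points (red) lie right of the Input points (blue) except for HIST1H4D, whose RIP labelled SW480 lies below the Input labelled SW480; in the right panel all RIP points lie left of the Inputs, several at 0.

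Mitochondrially encoded RNAs were split by kind. Of 31 tested genes, 13 were lower and 3 higher, and 11 of the 16 transfer RNA genes were among the lower ones. MT-TH, the histidine transfer RNA, had no read in either RIP library and 1383 and 944 FPKM in the Inputs, at least 214-fold and 267-fold lower against the level of 3 reads. MT-ND6, the complex I subunit that alone among the mitochondrial messages is encoded on the light strand, had 137 and 60.3 FPKM in RIP and 6869 and 5135 FPKM in Input. MT-ND1, the other lower message, had 7209 and 7384 FPKM in RIP against 16368 and 15710 FPKM. The remaining messages and the small ribosomal RNA MT-RNR1 passed neither rule. MT-RNR2, the large ribosomal RNA, was higher, with 605 and 939 FPKM in RIP and 377 and 270 FPKM in Input. The transfer RNAs MT-TI and MT-TT were the other higher genes. These 3 were not called over the acRIP-table Inputs, and MT-TI had ratios of 1.06 and -0.73.

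Antisense RNAs numbered 191 lower (43.0%) and 2 higher genes of 444. The lower share was near the 42.1% of all genes outside the protein-coding class. The antisense medians were -1.09 and -1.02 (-0.996 and -0.926 with zeros at the level of 3 reads), and 102 of the 191 had no read in either RIP library. AC055811.1 had no RIP read and 16.7 and 17.6 FPKM in the Inputs, which is at least 214-fold and 172-fold lower. The table does not state whether reads were counted by strand, so reads of an antisense gene and of its partner cannot be told apart. ZFAS1, described above, and AL590617.2 were the 2 higher antisense genes. Of 269 long intergenic RNAs, 69 were lower (25.7%) and 3 higher. MALAT1, an abundant RNA of nuclear speckles, had 437 and 345 FPKM in RIP and 1174 and 1200 FPKM in Input, a difference of 2.74-fold and 3.39-fold. Sense-intronic RNAs were lower in 31 of 76 cases (40.8%, also near 42.1%) and higher in 3.

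The ratios of processed pseudogenes changed sign with the choice of Input. Of 520 processed pseudogenes, 234 were lower and 28 higher over the RIP-table Inputs, with medians of -1.08 and -1.11. Taken over the acRIP-table Inputs, the medians were 0.21 and 0.13, 86 of the 234 were lower and 16 turned to higher. PPIAP11, a copy of the cyclophilin gene PPIA, had 4.79 and 2.25 FPKM in RIP and 129 and 120 FPKM in the Inputs, with log2 ratios of -4.39 and -5.32. Against the acRIP-table Inputs its ratios were 1.88 and 0.04. The higher pseudogenes held up more often, with 26 of 28 higher again. RPL41P1, a copy of the ribosomal protein gene RPL41, had 1611 and 2607 FPKM in RIP and 240 and 154 FPKM in Input, with ratios of 3.38 and 3.44. RPL41 itself had 183 and 332 FPKM in RIP and 47.4 and 30.4 FPKM in Input, ratios of 2.55 and 2.79. With the acRIP-table Inputs the copy stayed higher (4.28 and 5.56) and the gene reversed (-1.91 and -1.70). Reads of near-identical copies can be assigned to either, and the part of read assignment in these values was not tested.

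Protein-coding members were mostly on the higher side. TPT1, a tumour protein with a TOP message, had 630 and 666 FPKM in RIP and 70.4 and 62.7 FPKM in the Inputs. Both RIP values lay above both Inputs, with log2 ratios of 3.31 and 3.22, and over the acRIP-table Inputs they were 1.32 and 1.38. TUBA1B, an alpha-tubulin, had 176 and 327 FPKM in RIP and 18.6 and 13.3 FPKM in Input. TMA7, a small translation machinery protein, had 53.1 and 46.9 FPKM against 2.68 and 3.34 FPKM, and MZT2B, a protein of spindle pole complexes, 74.7 and 76.4 against 10.6 and 10.6 FPKM. C8orf59 (now RBIS, a factor of ribosome biogenesis) had 33.9 and 47.3 FPKM against 2.95 and 2.59 FPKM. SARAF, which damps store-operated calcium entry, had 86.6 and 84.7 FPKM in RIP and 18.2 and 14.5 FPKM in Input. TUBA1B alone of these genes was not at least 2-fold higher over all 4 Input columns of both tables.

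RPS23, a protein of the small ribosomal subunit, had the highest smaller-of-both ratio. Its levels were 120 and 221 FPKM in RIP and 6.37 and 5.50 FPKM in Input, ratios of 4.22 and 4.91, or 18.6-fold and 30.1-fold. Its level in the acRIP-table Inputs was much higher, and over those the ratios were 0.30 and 0.55. ATP5I (now ATP5ME), a subunit of ATP synthase, had 48.9 and 52.4 FPKM in RIP against 2.90 and 2.24 FPKM, and RHOF, a small GTPase of filopodia, 47.5 and 72.8 against 3.96 and 3.20 FPKM. Neither of them reached 2-fold over the acRIP-table Inputs, with 0.89 and 0.50 for ATP5I and 0.52 and 0.55 for RHOF. Of the 12 genes with the highest ratios, 7 were at least 2-fold higher over all 4 Input columns and 5, RPS23, ATP5I, RHOF, TUBA1B and ZFPL1, were not.

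**Figure D4:**
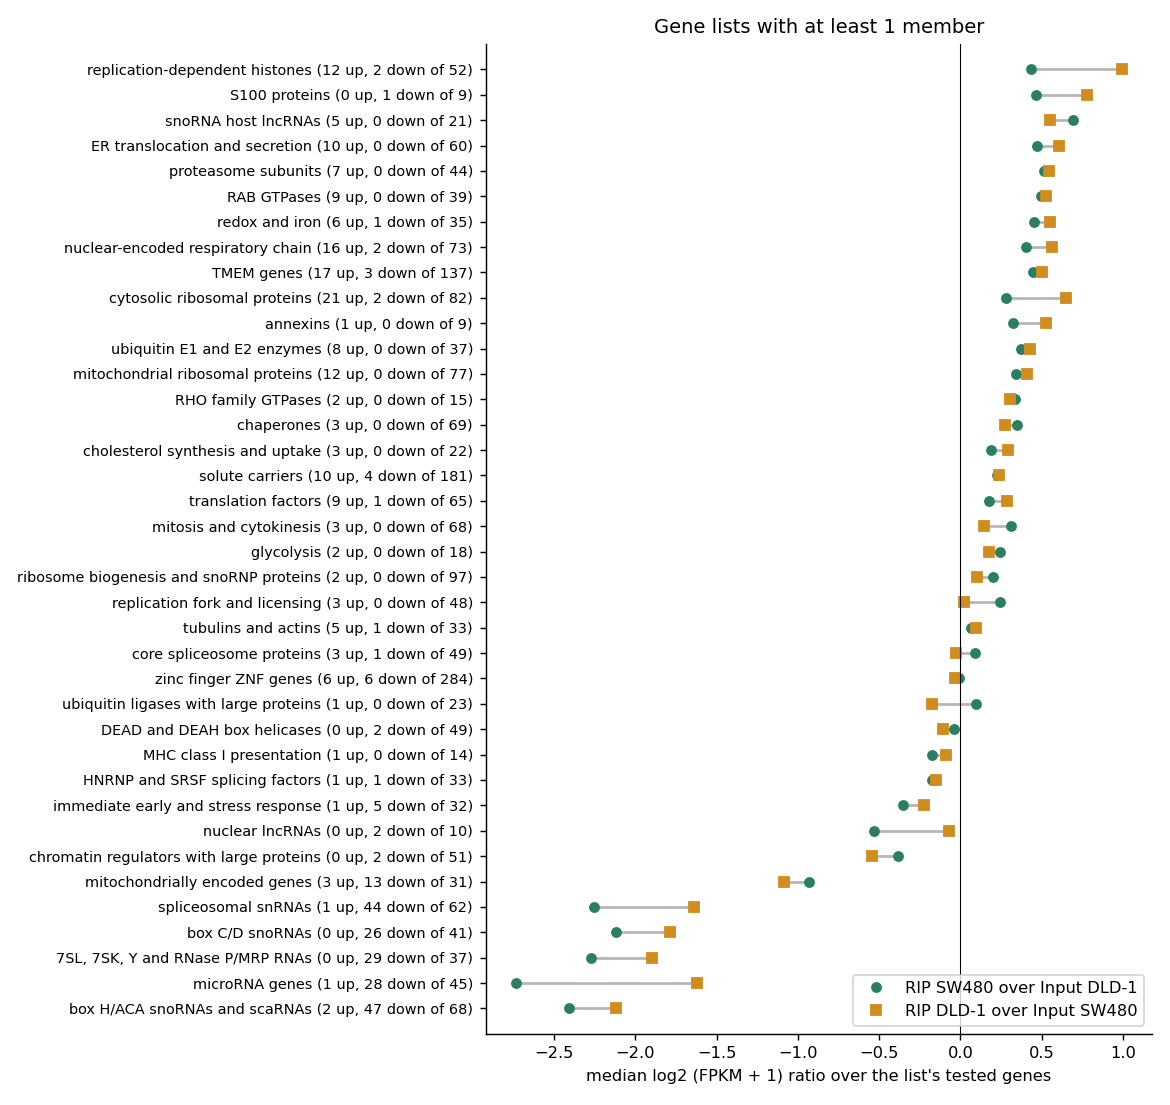
Each row is a gene list with at least 1 member; the circle and the square give the median log2 ratio of its tested genes in the first and the second crossed pair, and the grey line joins them. The 5 lists of short RNAs lie between -2.73 and -1.62, replication-dependent histones at 0.43 and 0.99, and chromatin regulators with large proteins at -0.39 and -0.54.

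Cytosolic ribosomal protein genes counted 21 higher and 2 lower of 82, a share of 25.6% higher beside the 6.15% of all protein-coding genes, with medians of 0.28 and 0.65. RPL30, a protein of the large subunit, had 256 and 459 FPKM in RIP and 51.0 and 30.6 FPKM in Input, and stayed higher over all 4 Input columns, as did RPS20 and RPS24. RPS24 had 142 and 205 FPKM in RIP and 61.1 and 40.8 FPKM in Input. The 2 lower genes were RPL31 (-1.12 and -1.02) and RPL37 (-1.68 and -1.12). When the reads of each gene were summed with those of the pseudogenes that carry its name, 16 of the 21 stayed higher. RPL9 went from 2.34 and 2.85 (from scaled reads, alone) to 0.63 and 0.98 with its 5 copies, and RPSA from 1.13 and 1.37 to 0.46 and 0.61 with its 16 copies. Over the acRIP-table Inputs 10 of the 21 were higher and 3, RPL9, RPL41 and RPS26, were lower. Mitochondrial ribosomal proteins, which make the ribosome of mitochondria, counted 12 higher and 0 lower of 77, with MRPL3 at 74.7 and 97.7 FPKM in RIP and 29.6 and 27.7 FPKM in Input.

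Some further lists held higher shares between 12.4% (TMEM genes) and 23.1% (RAB GTPases), beside 6.15% of all protein-coding genes. Others were below 6.15%, among them chaperones (4.35%), ZNF genes (2.11%) and ribosome biogenesis factors (2.06%). By exon length, protein-coding genes had 12.996% higher from 1000 to 2000 bases and 4.88% from 3000 to 5000. Proteasome subunits (median 1812.5 bases, 15.9%) and mitochondrial ribosomal proteins (1706 bases, 15.6%) were close to the first value. RAB GTPases (3272 bases) were above the second. Lists were not matched for length. The nuclear-encoded respiratory chain counted 16 higher and 2 lower of 73 genes. NDUFB3, a complex I subunit, had 27.5 and 26.1 FPKM in RIP and 5.80 and 5.99 FPKM in Input, and NDUFB9 had 65.8 and 64.1 against 18.8 and 19.3 FPKM. RAB GTPases, which direct vesicle traffic, counted 9 and 0 of 39. RAB1B had 56.6 and 54.5 FPKM in RIP against 16.1 and 12.8 FPKM, but its ratios over the acRIP-table Inputs were both -0.33. ER translocation and secretion genes counted 10 and 0 of 60, ubiquitin E1 and E2 enzymes 8 and 0 of 37, proteasome subunits 7 and 0 of 44, TMEM genes 17 and 3 of 137, and translation factors 9 and 1 of 65. PSMA4, a core proteasome subunit, had 41.0 and 38.2 FPKM in RIP and 11.5 and 10.1 FPKM in Input. TMEM60, a membrane protein of little known function, had 16.3 and 12.9 FPKM against 1.14 and 1.01 FPKM. EEF1A1, the elongation factor that brings aminoacyl-tRNA to the ribosome, had 1131 and 1665 FPKM in RIP and 484 and 370 FPKM in Input, but was below 2-fold over the acRIP-table Inputs, at 0.69 and 0.83. Higher again over those Inputs were 12 of the 16 respiratory chain genes, 8 of the 10 ER genes, 6 of the 8 E1 and E2 enzymes, 9 of the 17 TMEM genes, 4 of the 9 RAB genes, 2 of the 7 proteasome subunits and 2 of the 9 translation factors. The glycolytic enzyme GAPDH had 1433 and 1773 FPKM against 411 and 387 FPKM, with ratios of 1.89 and 2.11 that were 1.34 and 1.49 over the acRIP-table Inputs.

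Replication-dependent histone genes, whose messages end in a stem-loop in place of a poly(A) tail, counted 12 higher and 2 lower of 52. HIST1H4C (now H4C3) had 128 and 509 FPKM in RIP and 98.6 and 19.2 FPKM in the Inputs. The crossed ratios were 2.67 and 2.36, but the first RIP value was less than 2-fold above the Input of its own label. HIST1H4D had 212 and 987 FPKM in RIP and 227 and 48.7 FPKM in Input, so that its RIP and Input values overlapped. Over both Inputs of the RIP table only 4 histone genes were higher in both RIP libraries. Lists of the cell cycle were near the background, with 3 higher and 0 lower of 68 for mitosis and cytokinesis and 3 and 0 of 48 for the replication fork and licensing.

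Among the 204 lower protein-coding genes were transcription factors of the early stress response. TMEM238, a small membrane protein, had 1.96 and 2.62 FPKM in RIP and 21.3 and 22.7 FPKM in Input, with ratios of -3.01 and -2.62 that held over all 4 Input columns. CMTM8, a MARVEL-domain protein, had 13.3 and 13.5 FPKM against 48.4 and 48.3 FPKM, and SNRNP27, a protein of the U4/U6.U5 particle, 8.07 and 9.56 against 33.1 and 27.4 FPKM. Immediate early and stress genes counted 5 lower (15.6%) and 1 higher of 32, beside 1.97% lower and 6.15% higher among all protein-coding genes. FOSB had 13.8 and 13.2 FPKM in RIP and 62.8 and 45.8 FPKM in Input, and FOS 76.2 and 52.2 against 229 and 233 FPKM. FOSL1, like these an AP-1 subunit, had 73.6 and 67.9 FPKM against 184 and 214 FPKM, and EGR1 and JUN were the other lower genes. All but FOS (-0.94 and -1.62) were lower again over the acRIP-table Inputs. POLR2A, the largest subunit of RNA polymerase II, had 73.9 and 44.997 FPKM in RIP and 161 and 233 FPKM in Input. Chromatin regulators with large proteins had 2 lower genes (3.92%), ARID1A and EP400, and 0 higher of 51, and medians of -0.39 and -0.54. Neither gene was called over the Input of the same label, nor over the acRIP-table Inputs, where ARID1A had -0.50 and -0.62 and EP400 -0.82 and -0.89. No gene of the Wnt pathway list was called in either direction (30 tested), nor of the aminoacyl-tRNA synthetases (34 tested). At the shares of all protein-coding genes, 6.15% higher and 1.97% lower, few calls would fall in lists of this size.

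Exon length, which the rule did not use but FPKM is divided by, differed between the groups. It is the shortest length that gave whole reads and may be a divisor of the true one, more easily where a gene had few reads or zeros. MT-TH, with no read in RIP, was given 23 bases. The lengths of the lower genes may thus be too short, and how far this moves the shares below was not tested. Protein-coding genes had a median exon length of 2356 bases on the higher side, 2729 on the lower side and 3568 over all. The share of higher genes was 29.7% among the 37 genes of 300 to 500 bases, 12.996% from 1000 to 2000 bases, 7.09% from 2000 to 3000, 4.88% from 3000 to 5000, 2.37% from 5000 to 10000 and 0.517% above 10000 bases. In the other RNA classes the lower share went from 76.2% between 100 and 200 bases to 27.5% between 1000 and 2000 and 7.69% between 5000 and 10000. The lower share of protein-coding genes also declined with length, from 5.41% at 300 to 500 bases and 6.23% at 500 to 1000 to 1.11% at 5000 to 10000 and 0.775% above. Short protein-coding genes were thus more often called in either direction, and short RNAs of other classes more often lower. Length, RNA class and assignment of reads move together in these libraries, and their part in the ratios was not tested. The promoters of higher genes held 64.0% G and C at the median, those of lower genes 64.7% and those of all protein-coding genes 65.7%, over the 8494 genes with an entry. Of the 1974 genes of other classes 346 had a promoter entry, too few for the same check.

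**Figure D5:**
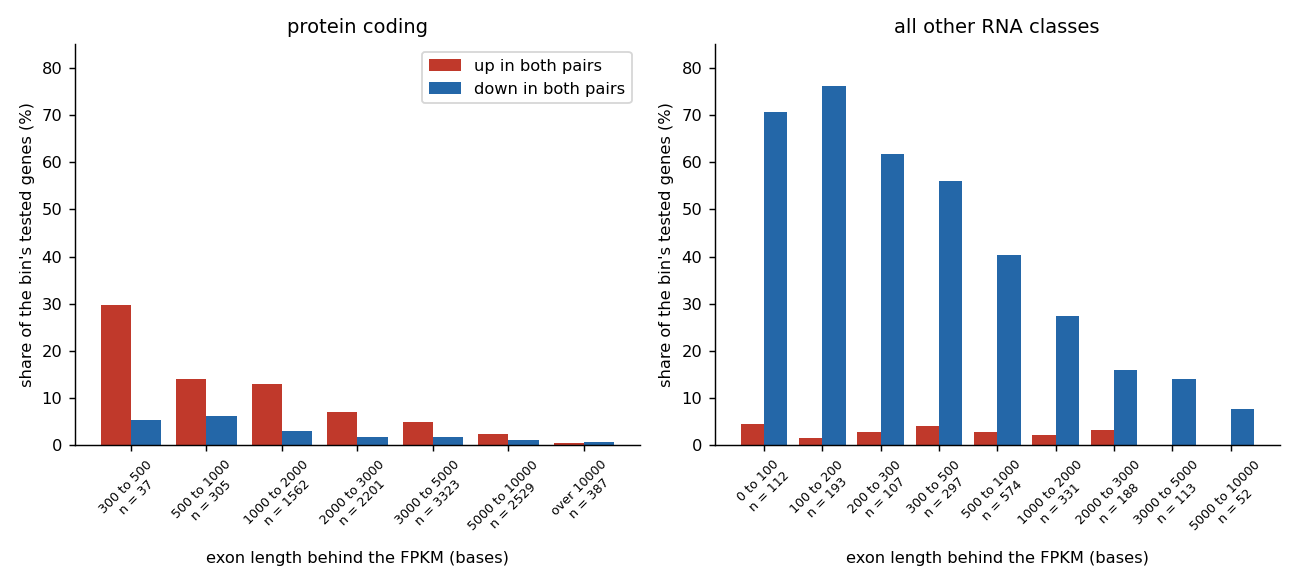
Bars give the share of tested genes (in %) at least 2-fold higher (red) or lower (blue) in both crossed pairs by exon length in bases, for protein-coding genes (left) and all other RNA classes (right), in bins of at least 20 genes. The higher share declines from 29.7% to 0.517% on the left, and the lower share peaks at 76.2% between 100 and 200 bases on the right.

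The ac4C peak lists of the acRIP-seq libraries are a readout that the rule did not use, but they may not be independent of it. Peaks are enrichments of acRIP over Input and may share the Input libraries of the ratios. A low Input value could then go with both a higher ratio and a peak, and this was not tested. A peak on the gene was listed in SW480 for 62.6% of the 637 higher protein-coding genes, 39.7% of the 204 lower ones and 51.1% of all 10350. In DLD-1 the shares were 76.6%, 35.8% and 56.8%. Peaks in both lines were found for 56.4% of the higher, 27.5% of the lower and 40.3% of all. By exon length the SW480 shares of the higher genes and of all genes were 51.9% and 51.4% up to 1000 bases, 71.4% and 58.1% from 1000 to 2000, 66.7% and 52.3% from 2000 to 3000, 53.1% and 51.1% from 3000 to 5000 and 58.1% and 46.5% above 5000. The DLD-1 shares in the same order were 59.3% and 52.0%, 81.3% and 63.8%, 80.8% and 57.3%, 75.3% and 57.7%, and 69.4% and 52.3%. The gap thus varied with length and was under 3 percentage points in 2 of the 5 bins in SW480. The lower genes carried peaks less often than all genes of the bin except above 5000 bases, where the shares of the 31 lower genes were 51.6% in SW480 and 61.3% in DLD-1. A peak needs reads in the Input and acRIP libraries, so detection can move with the level of a gene. Median levels in the Inputs labelled SW480 and DLD-1 were 8.44 and 8.23 FPKM for the higher, 8.32 and 7.26 FPKM for the lower and 9.96 and 10.4 FPKM for all protein-coding genes. Of the 12 genes with the highest ratios, 4 carried no peak in either list, namely ATP5I, RPL41P1, AC078817.1 and RPL30. Among the named messages TUBA1B carried 3 peaks in each line and TPT1 2 and 3.

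None of the genes followed by name in the study reached 2-fold in both crossed pairs, as was the case for 9509 of the 10350 tested protein-coding genes. The study chose those other than NAT10 from RNA-seq, RIP-seq and acRIP-seq together, and then by their correlation with NAT10 in public tumour expression data. It also examined KIF23 by RIP followed by qPCR against IgG and by acRIP followed by qPCR, with NAT10 knocked down or overexpressed as well. Further assays of the study were RNA gel shifts, reporters of the 3′ UTR, a NAT10 mutant and RNA decay. The ratios given here repeat none of these experiments. NAT10 itself had 20.8 and 14.3 FPKM in RIP and 21.2 and 23.0 FPKM in Input, with ratios of -0.14 and -0.54. HNRNPH3 had ratios of 0.81 and 0.64, MPP6 0.67 and 0.42, NAP1L4 0.68 and 0.37, and POU2F1 0.40 and -0.17. UBA1 had 0.14 and 0.08, KIF23 -0.06 and -0.13, and HNRNPA2B1 0.18 and -0.25. HNRNPH3 was thus 1.75-fold and 1.56-fold higher in RIP. Over the Input of the same label KIF23 ran in opposite directions, at -0.84 and 0.64.

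Members were finally set against every Input at hand. Over both Inputs of the RIP table, 398 genes (3.23% of the tested genes) were at least 2-fold higher in both RIP libraries and 823 (6.68%) were lower, all of them members by construction. Over the acRIP-table Inputs of the other label, scaled to the RIP table, 869 genes were higher (7.05%) and 761 lower (6.17%). Of these, 342 were also among the 689 higher members and 524 among the 1036 lower members, which is 49.6% and 50.6% of the members and 39.4% and 68.9% of the second lists. In 5 cases a higher member was lower there, and in 17 cases a lower member was higher, each of them a pseudogene. Over all 4 Input columns, 176 genes were higher (1.43%), 154 of them protein-coding, and 416 lower (3.38%), 364 of them of other classes. The lower group over all 4 columns included 44 of the 98 snoRNA genes, 9 of the 16 mitochondrial transfer RNA genes and 100 of the 444 antisense RNAs. The higher group included TMA7, TPT1, RPL30, MZT2B, SARAF, GAPDH, PSMA4 and 9 genes of the respiratory chain list.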

How the data were processed

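RNA was sequenced from Input, NAT10 RIP and acRIP (an antibody against ac4C) libraries of SW480 and DLD-1 cells, 6 libraries with 1 in each group. The authors deposited FPKM values per gene for the RIP and Input libraries, made by a sequencing provider. The submitters' processing notes name cutadapt 2.5, HISAT2 2.1.0 and the builds GRCh38, hg38 and GRCm38, without a role. The counting tool, annotation and strand setting are not given in the sources used here. The labels call the control Input while the study's text speaks of IgG. The deposited tables also hold the authors' own ratios, which were not used. The Input columns of the acRIP table carry no unit. They were read as FPKM and multiplied by 1.47 (SW480) and 1.53 (DLD-1) to the scale of the RIP table. Peak lists were deposited per library, with a fold enrichment of acRIP over Input given as a ratio, and only the presence of a peak on a gene was used. A list called on pooled libraries was not used.

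Ratios were computed as log2((RIP FPKM + 1)/(Input FPKM + 1)) for genes with at least 1 FPKM in both Inputs, and a gene was called at 2-fold in both crossed pairs. Whole reads were recovered from the FPKM steps, and 100% of 23515 genes gave whole numbers within 0.001 reads. The length found for a gene may be a divisor of the true one, so reads are lower limits and counting errors upper limits. Counting errors do not cover the spread between cultures, and no count test was run with 1 library in each group. The members and gene lists were chosen with earlier results of these data known.

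Genes were named by rule, namely the 12 most extreme ratios on each side, the 10 most extreme on each side among protein-coding genes with at least 10 FPKM in both Inputs, up to 3 per list and class, 3 on each side of a threshold, the genes of opposite direction and 8 genes the study followed. Host genes with the short RNAs inside them, the microRNA genes whose sequence is shown, the mitochondrial messages and ribosomal RNAs, most ribosomal protein genes and the exceptions of a list were named after their values were seen. RefSeq (GRCh38.p14) entries were matched by symbol for 99.1% of the protein-coding genes and 65.7% of the others. Scripts ran in Python 3.11.15 with numpy 2.4.6, pandas 2.3.3 and matplotlib 3.10.9 and were tested on simulated data. Alternatives were other pseudocounts, Input filters, centring, other Inputs and protein-coding genes alone.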

Additional observations from a re-analysis of the deposited data

Results flagged for a closer look

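Of the tested genes, 7 had opposite directions in the crossed pairs, and this difference was not tested, since each pair rests on 1 RIP and 1 Input library. The values are log2 ratios, first for the RIP labelled SW480 over the Input labelled DLD-1 and then for the RIP labelled DLD-1 over the Input labelled SW480. RNU5E-4P, a copy of the U5 snRNA, had -1.001 and 1.40. A copy named Y_RNA had -1.71 and 2.57. RPS18P9, a ribosomal protein pseudogene, had -1.04 and 1.36. SNORD99, a box C/D snoRNA, had -1.37 and 1.44. The remaining ones were AC004080.2 with -1.86 and 1.17, AP006621.3 with -1.79 and 1.26, and AF111167.1 with -1.59 and 1.34.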

How the results depend on the processing

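No paired analysis was possible because each group held 1 library and no replicate numbers. As reported, 689 genes were higher, 1036 lower and 7 of opposite direction. With a pseudocount of 0.1 FPKM the counts were 853, 1366 and 24, and with 5 FPKM they were 357, 252 and 1. Without an Input filter 1037 genes were higher and 115 of opposite direction, while the 1036 lower genes could not change, since a gene under 1 FPKM in an Input cannot be 2-fold lower on this scale. With at least 5 FPKM in both Inputs the counts were 408, 384 and 2. After centring on the protein-coding medians of 0.11 and 0.09 they were 537, 1181 and 7. Over the acRIP-table Inputs they were 869, 761 and 54, and over the Input of the same label 438, 899 and 717. Among protein-coding genes alone they were 637, 204 and 0. In 2 alternatives chosen after seeing the data, 398 genes were higher and 823 lower over both RIP-table Inputs, and 176 and 416 over all 4 Input columns. Single genes were checked for a turned sign only if named by rule. Over the acRIP-table Inputs it turned for RPL41 (-1.91), ZNF428 (-0.32), SRSF2 (-0.72), LSM12 (-0.97), RAB1B (-0.33) and PPIAP11 (1.88), and for the median of the mitosis list (-0.0051). Members outside that check also turned, among them RPL9, RPS26 and SCARNA13, described above. Over the Input of the same label the keratin median turned to 0.13. The cause was not tested. Low counts limit the ratios of the lower genes, whose median Input reads were 42 and 37 (SW480 label first). Their medians of 2 and 1 reads in the RIP libraries go with a rule that chose genes low in RIP.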
